A study of Homo sapiens with 6 samples.

Results

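Alpha-fetoprotein (AFP) and 9 other genes were followed in K562 cells depleted of N6AMT1. The 10 genes, of 19330 in the count table, were AFP, its chromosomal neighbour ALB, and 8 fetal or cancer-testis genes known from leukemia lines (PRAME, IGF2BP1, IGF2BP2, IGF2BP3, LIN28B, HMGA1, HMGA2 and SALL4). AFP was chosen by its own values, because it was higher in the depleted cells, so its difference is given as a description without a test. The question was whether the other genes rose with AFP or whether the rise was limited to the AFP locus.

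K562 is an established human chronic myelogenous leukemia line. RNA-Seq libraries were made from cells transduced with the lentiviral vector pLentiCRISPRv2, which carries Cas9 and a single guide RNA (sgRNA), with 3 independent transductions per condition. The control cells (sgCtrl) carried sgRNAs against OR11A1 and OR2M49 per the labels, whereas the methods name EGFP, or OR11A1 and OR2M4. The depleted cells (sgN6AMT1) carried sgRNAs against N6AMT1. Both conditions received puromycin for 48 h starting 48 h after infection, at a concentration on which the labels and the methods differ, and were analysed on day 10. The sources used here do not tie a library to its sgRNA. Total counts were 742470, 866894 and 866155 in sgCtrl replicates 1, 2 and 3, and 959319, 5526904 and 4062363 in sgN6AMT1 replicates 1, 2 and 3. A gene without counts may therefore have been present at up to 3 counts, which is 3.46 to 4.04 cpm (counts scaled to 1e6 per library) in sgCtrl, 3.13 in sgN6AMT1 replicate 1, and 0.543 and 0.738 in sgN6AMT1 replicates 2 and 3. Such limits cover counting error alone.

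Oncofetal genes are active in the embryo or fetus, are silenced in most adult tissues and can return in tumors. AFP and ALB are linked members of the albumin gene family. The fetal liver and yolk sac secrete AFP, and after birth the liver shuts AFP down while ALB, encoding serum albumin, stays on. The other genes encode RNA-binding proteins of the embryo (the IGF2BP family and LIN28B, which blocks maturation of let-7 microRNAs), chromatin proteins (HMGA1 and HMGA2), a stem cell transcription factor (SALL4) and a germline antigen (PRAME).

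Checks of the labels came first. N6AMT1 (chr21:28872191-28885371, GRCh38, minus strand), the methyltransferase gene targeted by the sgRNAs, was covered by 6, 5 and 9 counts in sgCtrl replicates 1, 2 and 3 and by 0, 18 and 16 counts in sgN6AMT1 replicates 1, 2 and 3. On the scale of cpm of the library total this was 8.08 ± 2.31 against 2.40 ± 2.10 (SD, n = 3 per condition), and the conditions did not overlap. The two-sided exact permutation test gave p = 0.1, the smallest that 3 against 3 libraries allow. N6AMT1 did not pass the filter on low counts. Without that filter edgeR did not call it (log2 fold change -1.36, SE 0.58, adjusted p = 0.137), nor did DESeq2 (adjusted p = 0.227). An edited transcript can still be counted, so this level does not measure the protein. All 17 listed markers of K562 cells, among them the embryonic and fetal globins and GATA1, had counts. Of 12 markers of other blood cells 5 had no counts in any library, and PTPRC, a leukocyte surface phosphatase, held 92.9% of the summed level of that list.

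The sequences upstream of AFP and ALB are shown because these 2 neighbouring genes had the lowest sgCtrl levels among those with counts. AFP (ENSG00000081051.8, chr4:73431138-73456174) and ALB (ENSG00000163631.18, chr4:73397114-73421482) lie in the same orientation on the plus strand of GRCh38 with 9.7 kb between them. The 250 bases before the RefSeq starts (GRCh38.p14, plus strand, 5′ to 3′) cover chr4:73435971-73436220 for AFP and chr4:73404037-73404286 for ALB, both downstream of the starts of the GENCODE genes. Capitals mark a match to TATAAA, the TATA box letters, which were chosen after the sequences had been seen.
AFP: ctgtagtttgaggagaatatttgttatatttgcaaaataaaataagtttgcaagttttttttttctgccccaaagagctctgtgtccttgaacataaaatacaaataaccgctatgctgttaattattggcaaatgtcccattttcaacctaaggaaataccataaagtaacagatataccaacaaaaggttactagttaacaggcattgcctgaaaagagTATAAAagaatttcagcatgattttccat
ALB: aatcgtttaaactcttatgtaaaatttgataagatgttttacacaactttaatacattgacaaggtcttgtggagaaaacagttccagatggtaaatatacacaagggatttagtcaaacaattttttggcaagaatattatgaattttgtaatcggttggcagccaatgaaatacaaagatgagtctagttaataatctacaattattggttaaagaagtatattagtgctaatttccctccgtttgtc
Searched on both strands, TATAAA occurred at -29 to -24 of AFP, counted from the start, and in 3763 of all 35116 RefSeq windows of this length (10.7%). The ALB window held no exact match. Variants of the TATA box letters were not sought in any window, so a lack of such an element in ALB is not shown. RefSeq windows were found for 7 of the 10 genes, and among the other 5 matched genes the only match was on the minus strand of the IGF2BP2 window, at -222 to -217. A match describes letters and no binding was measured here.

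AFP was low in every sgCtrl library and higher in every sgN6AMT1 library. It had 5, 2 and 8 counts in sgCtrl replicates 1, 2 and 3 and 46, 224 and 163 counts in sgN6AMT1 replicates 1, 2 and 3. After TMM normalization (trimmed mean of M values, which corrects library totals for composition) the level was 6.72, 2.31 and 9.43 cpm in sgCtrl and 48.5, 40.9 and 41.9 cpm in sgN6AMT1. The sgN6AMT1 libraries lay close together, although their totals differed widely, and all of them exceeded the highest sgCtrl library. The mean level went from 6.15 ± 3.60 to 43.8 ± 4.12 cpm (SD, n = 3), a fitted log2 fold change of 2.81 (SE 0.37). Summed over libraries, 15 sgCtrl counts stood against 433 sgN6AMT1 counts, a ratio of shares of 6.77 (95% exact counting interval 4.06 to 12.2). This interval covers counting error alone and leaves out the spread between libraries. It is no test, since AFP was chosen for its rise. AFP ranked 11 from the top by log2 fold change among the 8324 genes that passed the filter on low counts. Its log2 fold change ran from 2.39 to 3.29 over 16 alternatives, the lowest without sgCtrl replicate 2 and the highest without sgCtrl replicate 3, the libraries with its fewest and most counts. These are bulk libraries, in which more AFP per cell and more cells with AFP cannot be told apart.

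ALB was nearly undetected in sgCtrl and detected in every sgN6AMT1 library. The counts were 0, 1 and 0 in sgCtrl replicates 1, 2 and 3, and 5, 32 and 20 in sgN6AMT1 replicates 1, 2 and 3. The TMM-normalized level was 0, 1.15 and 0 cpm in sgCtrl and 5.27, 5.84 and 5.14 cpm in sgN6AMT1. The conditions did not overlap, and the sgN6AMT1 levels were a little above the 3.46 to 4.04 cpm that a count of 0 allows in the sgCtrl libraries. ALB did not pass the filter on low counts. On cpm of the library total it measured 0.385 ± 0.666 against 5.31 ± 0.441 (SD, n = 3; two-sided exact permutation p = 0.1, the smallest possible), and the summed counts of 1 and 57 gave a ratio of shares of 13.4 (95% exact counting interval 2.31 to 538). Without the filter, ALB was called higher by the quasi-likelihood test of edgeR (log2 fold change 3.57, SE 1.08, adjusted p = 0.0172), where 4.53% of 13874 genes were called higher. With the deeper libraries also thinned the adjusted p was 0.0303. The call without the filter was lost without sgCtrl replicate 1 (edgeR adjusted p = 0.0911), sgCtrl replicate 3 (0.0752) or sgN6AMT1 replicate 2 (0.0876), and DESeq2 gave ALB no adjusted p. The size of the fitted fold rests on the 1 count of sgCtrl replicate 2: without that library all sgCtrl counts were 0 and the log2 fold change was 6.72 (SE 2.03). ALB stayed the minor transcript of the pair: it held 9.80%, 12.5% and 10.9% of the counts of both genes in the sgN6AMT1 libraries, or 57 of 490 counts in sum (11.6%, exact 95% interval 8.93 to 14.8%). In sgCtrl it was 1 of 16 counts (6.25%, interval 0.158 to 30.2%), too few to show a different share.

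The other genes near AFP did not pass the test. Within 2 Mb of either end of AFP the table held 24 further genes, of which 9 had no counts in any library, 15 had counts and 4 passed the filter. None of the 4 was called by edgeR, none had an unadjusted p under 0.05, and DESeq2 called 0 of 5. The background was 820 of 8324 genes called at an adjusted p under 0.05, or 9.85%. Their median log2 fold change was 0.13, beside 0.01 for all genes tested. Without the filter ALB was the only neighbour called. Toward ALB, ANKRD17, an ankyrin repeat protein gene 172.3 kb from AFP, showed 212, 269 and 271 sgCtrl counts against 242, 1390 and 1009 (log2 fold change -0.25, SE 0.14, edgeR adjusted p = 0.259). COX18, an assembly factor of cytochrome c oxidase 361.4 kb away, measured 0.52 (SE 0.38, 0.412 by the same test), and ADAMTS3, a secreted protease gene 861.9 kb away, measured -0.40 (SE 0.23, 0.290). On the other side, MTHFD2L, a mitochondrial folate enzyme gene at 658.0 kb, had a log2 fold change of 0.71 (SE 0.37, edgeR adjusted p = 0.229). AFM, the albumin family member 25.6 kb past AFP, had 1 count in sgN6AMT1 replicate 1 and none elsewhere, and GC, the family member that encodes the vitamin D binding protein, had none. RASSF6, 115.4 kb past AFP and named after its values were seen, had 1, 0 and 0 sgCtrl counts against 5, 11 and 5. Its normalized levels overlapped, and without the filter its log2 fold change was 2.28 (SE 1.39, edgeR adjusted p = 0.363).

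Besides ALB, 3 neighbours averaged at least 5 counts per library without passing the filter. CXCL8 (interleukin 8), 284.3 kb from AFP, showed 2, 1 and 3 sgCtrl counts against 7, 32 and 23, without overlap of the normalized levels (2.5 ± 1.2 against 6.4 ± 0.9 cpm). The EGF receptor ligands EREG and AREG, 909.0 and 989.0 kb away, were lower in each sgN6AMT1 library than in any sgCtrl library after normalization (6.5 ± 1.8 against 2.4 ± 1.6 cpm and 9.2 ± 3.8 against 3.1 ± 1.8 cpm). EREG had 5, 4 and 7 counts against 4, 8 and 6, and AREG had 4, 8 and 11 counts against 1, 20 and 18, in sgCtrl and sgN6AMT1 replicates 1, 2 and 3. Without the filter none of these passed the test (edgeR adjusted p = 0.270, 0.0965 and 0.111).

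**Figure D1:**
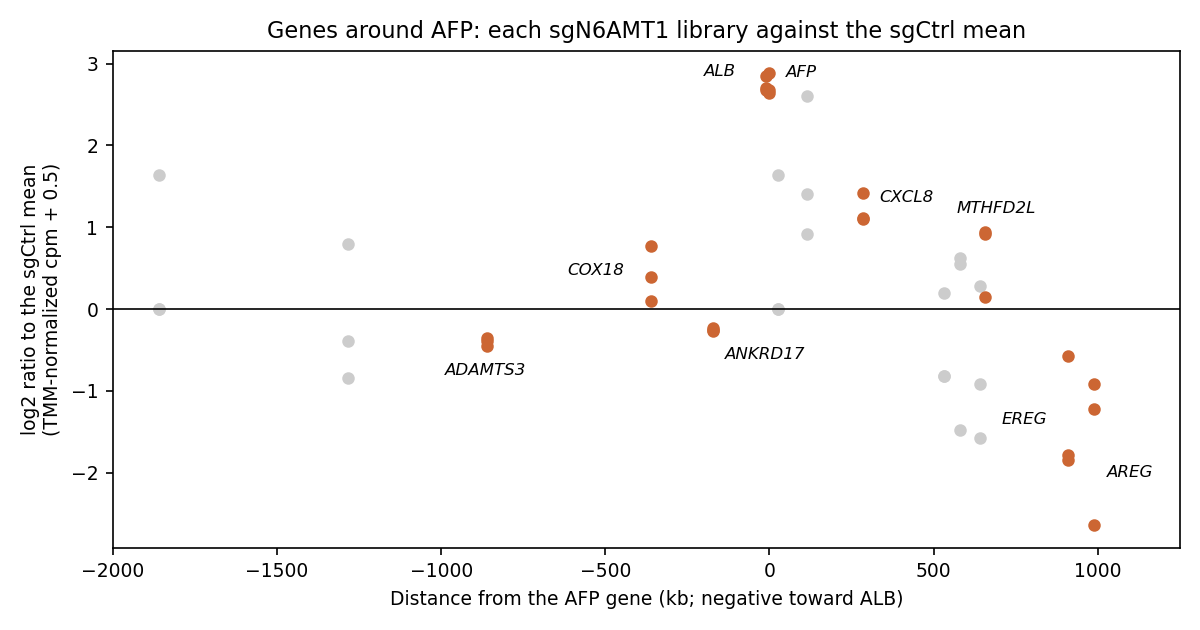
Each point is the log2 ratio of 1 sgN6AMT1 library to the sgCtrl mean (TMM-normalized cpm + 0.5, vertical axis) for a gene with counts near AFP, against its distance from AFP in kb (horizontal axis, ALB side negative), with genes under a mean of 5 counts per library in grey. AFP and ALB stand together at the top, ANKRD17 and ADAMTS3 lie slightly below 0, and EREG and AREG lie below 0 with wide scatter. The height of ALB depends on the added 0.5 cpm, since its sgCtrl mean was 0.385 cpm, so equal heights do not show equal rises.

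Of the 9 genes other than AFP, 6 passed the filter, and 3 of these were called by edgeR, beside 9.85% of all genes tested. PRAME was the 1 called higher (background 5.09%), whereas IGF2BP2 and HMGA1 were called lower (background 4.76%). The log2 fold change was negative in 5 of the 6 genes, with a median of -0.50 beside 0.01 for all genes tested, of which 4096 of 8324 were negative. The conditions did not overlap in 5 of the 6 (4 lower and 1 higher), beside 29.2% of all genes tested. ALB did not pass the filter, and HMGA2 and SALL4 had no counts. At this list size the shares are descriptions.

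**Figure D2:**
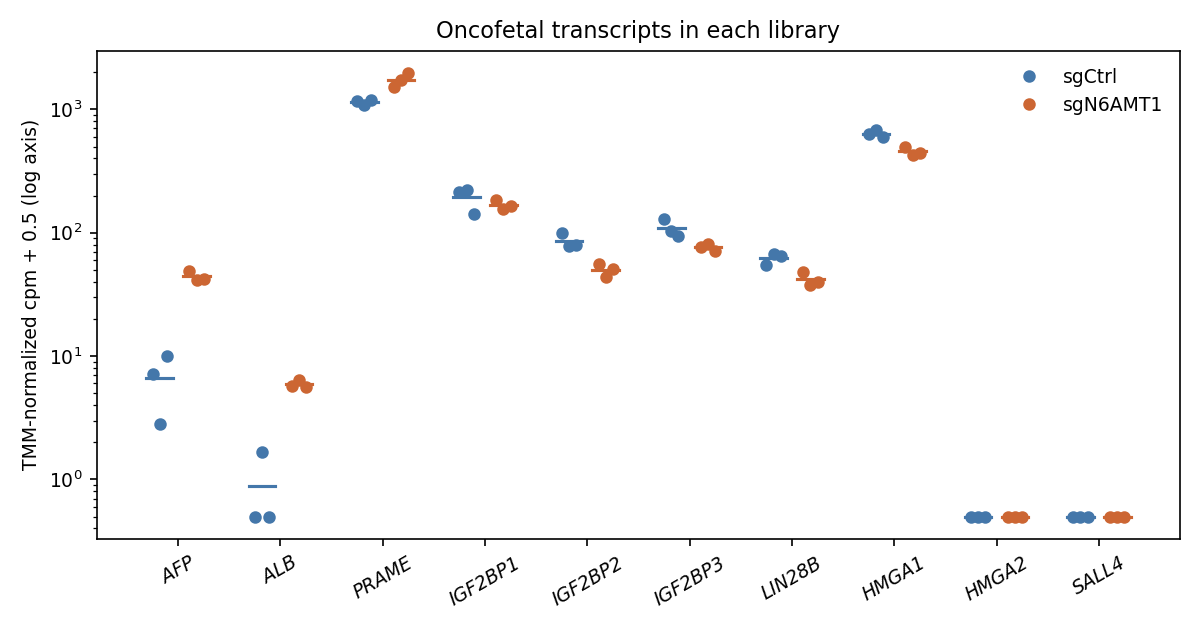
Points give the level of each gene in each library (TMM-normalized cpm + 0.5, log axis) in sgCtrl (blue) and sgN6AMT1 (orange), and short lines give the means of 3 libraries. AFP, ALB and PRAME are higher in all 3 sgN6AMT1 libraries, IGF2BP2, IGF2BP3, LIN28B and HMGA1 are lower in all 3, IGF2BP1 overlaps, and HMGA2 and SALL4 sit at 0 cpm.

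PRAME (ENSG00000185686.18, chr22:22547701-22559361, minus strand), a germline antigen that recruits substrates to a cullin 2 ubiquitin ligase and represses retinoic acid receptors, was abundant and rose. Its level was 1160, 1075 and 1197 cpm in sgCtrl replicates 1, 2 and 3 and 1531, 1721 and 1974 cpm in sgN6AMT1 replicates 1, 2 and 3. Every sgN6AMT1 library exceeded every sgCtrl library. The mean went from 1144 ± 62.2 to 1742 ± 222 cpm (SD, n = 3), with a log2 fold change of 0.61 (SE 0.15, edgeR adjusted p = 0.0193). The call was lost without sgCtrl replicate 1 (0.0611), sgCtrl replicate 2 (0.125) or sgN6AMT1 replicate 2 (0.0573), with the log2 fold change between 0.43 and 0.69 over all 17 alternatives. A long noncoding RNA overlaps PRAME on the opposite strand, and whether the counting used strand is not given in the sources used here.

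Other cancer-testis genes are expressed in the male germline and in tumors. The table held 76, of which 59 had counts and 30 passed the filter. Of the 30, 1 was called higher and 1 lower, beside 9.85% of all genes called. The median log2 fold change was 0.11, with positive values in 23 of 30, beside 4228 of 8324 among all genes tested. PAGE5 went from 26, 34 and 30 counts in the sgCtrl replicates to 74, 346 and 303 in the sgN6AMT1 replicates, and its level rose from 36.5 ± 2.4 to 73.0 ± 8.5 cpm (log2 fold change 0.98, SE 0.21, edgeR adjusted p = 0.00861). SSX1, which encodes a transcriptional repressor, had 77, 70 and 88 sgCtrl counts against 45, 331 and 261, and its level fell from 96.0 ± 13.2 to 58.3 ± 10.0 cpm (log2 fold change -0.68, SE 0.19, edgeR adjusted p = 0.0323). PAGE5 kept its call with each library left out in turn (highest adjusted p = 0.0424), whereas SSX1 kept it only without sgN6AMT1 replicate 3 (highest 0.113, without sgCtrl replicate 1). The most abundant members, GAGE1 and GAGE12J, had log2 fold changes of 0.04 (SE 0.15) and -0.02 (SE 0.15). GAGE genes can share reads with near-identical copies, as do MAGEA2 and MAGEA2B, whose counts differed by at most 1, and MAGEA9 and MAGEA9B, whose counts were identical.

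The listed partners of PRAME and the retinoid receptors numbered 15 in the table, and 10 passed the filter, with 2 called higher (5.09% of all genes), none lower (4.76%) and a median of -0.03. DESeq2 called 1 of them, as did edgeR with the GC and length correction. RBX1, the RING subunit, rose from 38.7 ± 7.1 to 66.7 ± 12.1 cpm (log2 fold change 0.81, SE 0.23, edgeR adjusted p = 0.0298). ELOB, elongin B, listed as TCEB2, rose from 142.6 ± 14.6 to 216.9 ± 48.8 cpm (log2 fold change 0.62, SE 0.18, edgeR adjusted p = 0.0323). The RBX1 call was lost without sgCtrl replicate 1, sgCtrl replicate 2 or sgN6AMT1 replicate 2 (up to 0.127), and the ELOB call was kept only without sgN6AMT1 replicate 1 (otherwise up to 0.174). EZH2, the histone methyltransferase that PRAME is known to bind, measured -0.20 (SE 0.17, adjusted p = 0.513).

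Among the 3 IGF2 mRNA-binding proteins and LIN28B, IGF2BP2 was called lower and the other genes did not pass the test. IGF2BP2 (chr3:185643130-185825042, minus strand) had a level of 98.1, 77.3 and 79.0 cpm in sgCtrl replicates 1, 2 and 3 and of 54.8, 43.4 and 50.6 cpm in sgN6AMT1 replicates 1, 2 and 3. All sgN6AMT1 libraries lay below all sgCtrl libraries, and the mean fell from 84.8 ± 11.6 to 49.6 ± 5.75 cpm (log2 fold change -0.79, SE 0.20, edgeR adjusted p = 0.0173). The call was lost without sgCtrl replicate 1 (0.0915), sgCtrl replicate 2 (0.0549) or sgN6AMT1 replicate 2 (0.0852).

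IGF2BP3 (chr7:23310209-23470491, minus strand), the paralog best known from carcinomas, measured 129, 103 and 93.1 cpm in sgCtrl and 75.9, 80.1 and 70.7 cpm in sgN6AMT1. The conditions did not overlap, but the log2 fold change of -0.51 (SE 0.18) missed the threshold (edgeR adjusted p = 0.0757). MALSU1 on the opposite strand overlaps IGF2BP3 and measured 72.6 ± 5.21 against 91.2 ± 4.81 cpm (log2 fold change 0.33, adjusted p = 0.240). IGF2BP1 (chr17:48997385-49056145, plus strand), the paralog that stabilizes MYC mRNA, measured 214, 223 and 141 cpm in sgCtrl and 182, 155 and 163 cpm in sgN6AMT1. Its conditions overlapped, with the lowest level in sgCtrl replicate 3 (log2 fold change -0.21, SE 0.17, edgeR adjusted p = 0.463). Without that library the log2 fold change was -0.40, without sgCtrl replicate 1 it was -0.14 and without sgCtrl replicate 2 it was -0.10, none of them called. Whether the 3 paralogs differed in response was not tested.

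LIN28B (chr6:104936616-105083332, plus strand) measured 53.8, 66.9 and 64.8 cpm in sgCtrl replicates 1, 2 and 3 and 47.4, 37.1 and 39.3 cpm in sgN6AMT1 replicates 1, 2 and 3. The conditions did not overlap, and the mean of 61.8 ± 7.08 in sgCtrl stood against 41.3 ± 5.45 cpm (log2 fold change -0.62, SE 0.21, edgeR adjusted p = 0.0688). LIN28B overlaps an antisense gene, as do IGF2BP1 and IGF2BP2, so their counts share the doubt on strand.

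Among 30 genes of the LIN28 and let-7 pathway in the table, 23 passed the filter, with none called higher, 2 lower and a median of -0.07, beside 9.85% of all genes called. The share called was near the background. DROSHA, the nuclease that cuts primary microRNAs, fell from 149.0 ± 13.6 to 98.2 ± 8.9 cpm (log2 fold change -0.61, SE 0.16, edgeR adjusted p = 0.0249). KHSRP, which aids let-7 maturation, fell from 321.9 ± 64.6 to 227.0 ± 4.1 cpm (log2 fold change -0.50, SE 0.16, edgeR adjusted p = 0.0485). The DROSHA call was kept only without sgN6AMT1 replicate 1 (otherwise up to 0.0962), and the KHSRP call only without sgCtrl replicate 3 (otherwise up to 0.241). The most abundant genes of the list, HNRNPA1 and XPO5, had log2 fold changes of -0.57 (SE 0.22, adjusted p = 0.104) and -0.07 (SE 0.15, adjusted p = 0.805). LIN28A, the paralog of LIN28B, had no counts. The microRNAs themselves were not analysed here.

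The partners and target mRNAs of the IGF2BP proteins numbered 18 in the table, and 17 passed the filter, with none called higher (5.09% of all genes), 3 lower (4.76%) and a median of -0.22. HNRNPU, SYNCRIP and PABPC1, RNA-binding proteins found in complexes with IGF2BP1, fell with log2 fold changes of -1.07, -0.85 and -0.78 (SE 0.22, 0.18 and 0.19; edgeR adjusted p = 0.00567, 0.00880 and 0.0173). HNRNPU had 844, 985 and 632 sgCtrl counts against 516, 3248 and 1176, a fall from 1005 ± 225 to 480 ± 155 cpm. It kept its call with each library left out (highest adjusted p = 0.0499), SYNCRIP lost it without sgCtrl replicate 2 (0.0792), and PABPC1 lost it without sgCtrl replicate 1 (0.0776), sgCtrl replicate 2 (0.0917) or sgN6AMT1 replicate 2 (0.0593). In all 3 genes sgN6AMT1 replicate 3 was lowest, for HNRNPU at 302 cpm beside 544 and 593 cpm in replicates 1 and 2. Without it the log2 fold changes were -0.82, -0.66 and -0.60, still called. ACTB, whose mRNA IGF2BP1 is known to carry, measured 0.28 (SE 0.16, adjusted p = 0.259), and IGF2 itself had no counts.

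HMGA1 (ENSG00000137309.21, chr6:34236873-34246231, plus strand), an architectural chromatin protein abundant in embryonic and cancer cells, was also lower. It had 471, 584 and 502 counts in sgCtrl replicates 1, 2 and 3 and 473, 2343 and 1712 in sgN6AMT1 replicates 1, 2 and 3, or 633, 674 and 592 against 498, 428 and 440 cpm after normalization. The highest sgN6AMT1 library lay below the lowest sgCtrl library. The mean fell from 633 ± 41.0 to 455 ± 37.8 cpm (log2 fold change -0.48, SE 0.14, edgeR adjusted p = 0.0403), and the call was lost without sgCtrl replicate 1 (0.101), sgCtrl replicate 2 (0.175), sgN6AMT1 replicate 2 (0.164) or sgN6AMT1 replicate 3 (0.0592). Processed pseudogenes resemble HMGA1, and how reads mapping to several places were counted is not given in the sources used here. HMGA2 (chr12:65824460-65966291), its paralog in the early embryo, had 0 counts in all 6 libraries, so any level in the deepest was under 0.543 cpm.

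SALL4 (chr20:51782331-51802521), a zinc finger factor of embryonic stem cells and fetal liver that recruits the NuRD deacetylase complex, also had 0 counts in all 6 libraries. The list of SALL family and NuRD genes held 18, of which 16 passed the filter, with none called higher (5.09% of all genes) and 3 lower (4.76%). The log2 fold change was negative in 15 of the 16, with a median of -0.31 beside 0.01 for all genes tested. The NuRD subunits MTA1 and GATAD2A fell by 0.65 and 0.61 on the log2 scale (SE 0.19 and 0.19; edgeR adjusted p = 0.0351 and 0.0453). BMI1, a Polycomb gene and target of SALL4, fell by 0.50 (SE 0.16, edgeR adjusted p = 0.0489). All 3 calls were lost without sgCtrl replicate 1 (0.131, 0.246 and 0.152), sgCtrl replicate 2 (0.116, 0.111 and 0.133), sgN6AMT1 replicate 2 (0.0925, 0.117 and 0.120) or sgN6AMT1 replicate 3 (0.0918, 0.0869 and 0.122), and that of BMI1 also without sgCtrl replicate 3 (0.0716). The most abundant subunits, CHD4 and RBBP4, measured -0.07 (SE 0.15, adjusted p = 0.805) and -0.28 (SE 0.14, adjusted p = 0.221).

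Further oncofetal and embryonic genes were mostly silent. The table held 26, of which 14 had no counts in any library, among them GPC3, CEACAM5, SOX2, NANOG and POU5F1, and 4 passed the filter. None was called higher and 2 were called lower, beside 5.09% and 4.76% of all genes, and the median was -0.73. DLK1, an imprinted fetal Notch ligand, had 31, 45 and 42 sgCtrl counts against 15, 121 and 52, and fell from 47.7 ± 5.4 to 17.1 ± 4.5 cpm (log2 fold change -1.45, SE 0.27, edgeR adjusted p = 0.00326). MDK, the growth factor midkine, fell from 75.1 ± 7.1 to 44.5 ± 8.1 cpm (log2 fold change -0.80, SE 0.21, edgeR adjusted p = 0.0219). DLK1 kept its call with each library left out (highest adjusted p = 0.0309), whereas MDK lost it without any 1 of the sgCtrl replicates 1, 2 and 3 (0.0781, 0.0599 and 0.0583) or sgN6AMT1 replicate 2 (0.0811). DNMT3B, the embryonic DNA methyltransferase, had a log2 fold change of -0.55 (SE 0.21, adjusted p = 0.0989).

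**Figure D3:**
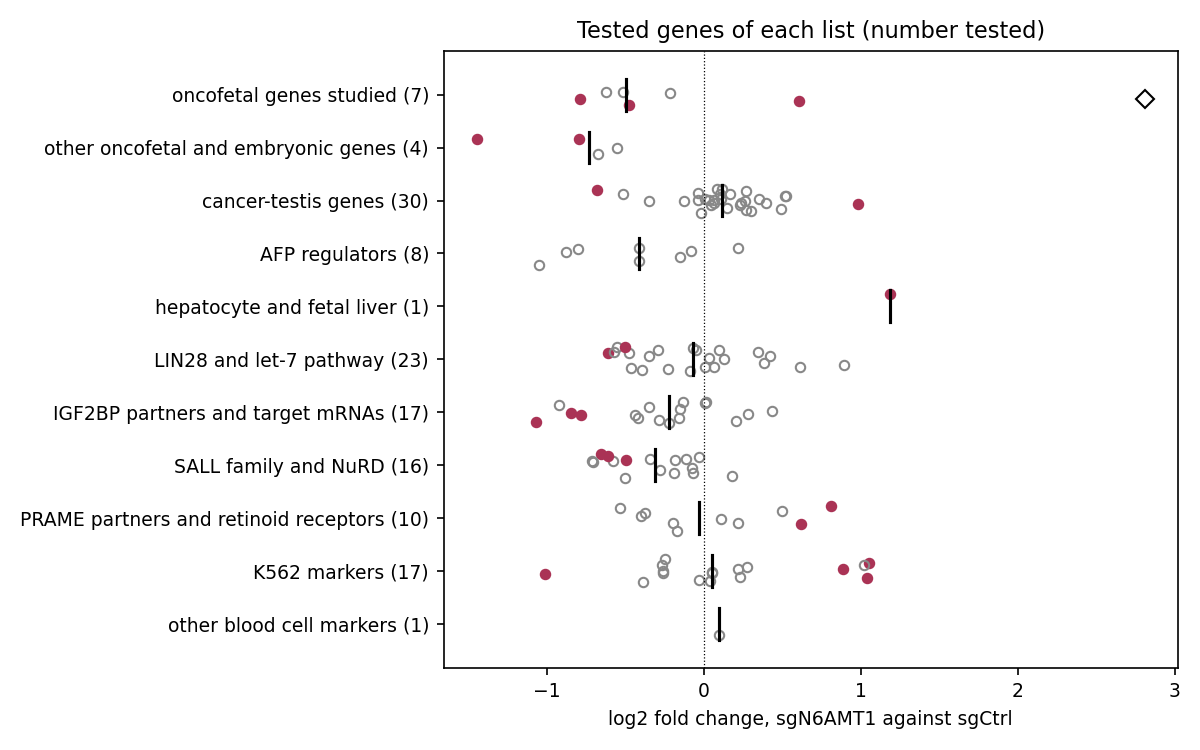
Each circle is the log2 fold change (sgN6AMT1 against sgCtrl, horizontal axis) of a gene that passed the filter, by list, filled where the edgeR adjusted p was under 0.05, and vertical bars give the median of each list. AFP (open diamond, 2.81, not tested and left out of its median) lies to the right of every listed gene, and in its row PRAME is filled above 0 while IGF2BP2 and HMGA1 are filled below 0.

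Known regulators of AFP were then examined. The table held 30, of which 22 had counts and 8 passed the filter, and none was called by edgeR or DESeq2, beside 9.85% of all genes, although 4 of the 8 had an unadjusted p under 0.05, as did 2185 of all 8324 genes tested. The median log2 fold change was -0.41, with 7 of 8 negative. ZHX2 and ZBTB20, repressors of AFP in the adult liver, had 0 counts in all 6 libraries and 1 count in each sgN6AMT1 library, respectively. ZFHX3, another AFP repressor, had 1 count in sgN6AMT1 replicate 1. Among the liver activators, HNF4A had 2 counts in sgN6AMT1 replicate 3 and none elsewhere, and FOXA1 had 0, 0 and 0 sgCtrl counts against 2, 13 and 5, both named after their values were seen. The FOXA1 levels of 2.11, 2.37 and 1.29 cpm in sgN6AMT1 lie under what a count of 0 allows in sgCtrl, and without the filter its edgeR adjusted p was 0.156. The most abundant genes of the list were ZHX1, with 120, 140 and 115 sgCtrl counts against 127, 596 and 414 (log2 fold change -0.41, SE 0.16, edgeR adjusted p = 0.117), and HHEX, a factor of liver and blood development (0.22, SE 0.18, 0.485). The most negative were NFIC (-1.05, edgeR adjusted p = 0.0613) and NR2F2 (-0.88, 0.0710), singled out after the fact, and without the filter both were called lower (0.0288 and 0.0350). Over 18 alternatives the calls of this list ran from 0 to 2, all lower. It was 2 without the filter, without sgCtrl replicate 3, without sgN6AMT1 replicate 1 or with the replicate block. It was 1 with the GC and length correction alone or with at least 10 counts in every library, and 0 in the other settings.

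Hepatocyte and fetal liver genes were read beside AFP and ALB. Of 25 markers 13 had counts, 12 had none, and 1, APOE, passed the filter. The summed level of the list was 28.2, 47.3 and 35.4 cpm in sgCtrl and 89.6, 81.0 and 107 cpm in sgN6AMT1, and APOE, an apolipoprotein also made outside the liver, held 89.0% of it. APOE had 21, 41 and 25 counts against 75, 390 and 352, and rose from 35.0 ± 10.7 to 80.2 ± 9.7 cpm (log2 fold change 1.19, SE 0.23, edgeR adjusted p = 0.00418), also with each library left out (highest 0.0353). VTN, encoding the plasma protein vitronectin and singled out after its values were seen, had 0 counts in sgCtrl and 3, 30 and 35 in sgN6AMT1. Pooled over libraries, this was at least 5.32-fold higher against a floor of 3 counts over the sgCtrl libraries. In sgN6AMT1 replicate 1 alone, the VTN level of 3.16 cpm lay under the 3.46 to 4.04 cpm that a count of 0 allows in sgCtrl. Without the filter VTN, on chromosome 17, was called higher by edgeR (adjusted p = 0.000769), where 4.53% of 13874 genes were called higher. It was picked for its values, so this call is a description. Transferrin (TF) had 0, 0 and 5 counts against 6, 15 and 17, and hemopexin (HPX) had no sgCtrl counts and 0, 3 and 4 in sgN6AMT1. After normalization the conditions overlapped for TF (0, 0 and 5.89 cpm against 6.32, 2.74 and 4.37 cpm) and for HPX. Other secretory genes were at or near 0: SERPINA1, APOC3, FGB, AHSG and AMBP had no counts, and APOA1, APOA2, APOB, TTR, FGA, FGG and HP had at most 2 counts in any library.

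K562 cells express fetal and embryonic globins, of which HBE1, HBG1 and HBG2 were called higher by edgeR, whereas HBZ, the embryonic alpha-like globin, measured -0.39 (log2 fold change, adjusted p = 0.116). HBE1 rose from 1123 ± 184 to 2075 ± 349 cpm (log2 fold change 0.89, SE 0.17, edgeR adjusted p = 0.00414). HBG1 and HBG2, near-identical copies that share reads, had log2 fold changes of 1.04 and 1.05 (edgeR adjusted p = 0.0149 and 0.0144), but their conditions overlapped and DESeq2 called neither (0.117 and 0.116). LMO2, a transcriptional cofactor of blood progenitors, fell by 1.01 (SE 0.27, edgeR adjusted p = 0.0239), so that 3 of 17 K562 markers were called higher and 1 lower, beside 5.09% and 4.76% of all genes, with a median of 0.05. HBE1 lost its call without sgCtrl replicate 2 (0.0561), HBG1 and HBG2 without sgCtrl replicate 1 (0.0756 and 0.0743) or sgCtrl replicate 2 (0.111 and 0.110), and LMO2 without sgCtrl replicate 1 (0.0675), sgCtrl replicate 3 (0.102) or sgN6AMT1 replicate 2 (0.0519). The part of these shifts in the rise of AFP was not tested.

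Levels of different genes were compared per kb of exon, taking the union of all annotated exons of a gene (AFP 3.201 kb, IGF2BP1 9.631 kb). The transcripts expressed may be shorter, by an amount that differs between genes. The order below therefore holds on this scale only, and the SD covers the spread between libraries alone. In sgCtrl the order was PRAME (301 ± 16.3 cpm per kb), HMGA1 (272 ± 17.6), IGF2BP1 (20.0 ± 4.62), IGF2BP2 (15.9 ± 2.17), IGF2BP3 (12.7 ± 2.18), LIN28B (10.4 ± 1.19), AFP (1.92 ± 1.12) and ALB (0.112 ± 0.194), all in cpm per kb (SD, n = 3). The ranges of PRAME and HMGA1 overlapped, as did those of each neighbouring pair from IGF2BP1 to LIN28B, whereas AFP lay below LIN28B in every library. In sgN6AMT1 the level of AFP, 13.7 ± 1.29 cpm per kb, stood between IGF2BP1 (17.3 ± 1.44) and IGF2BP2 (9.31 ± 1.08) without overlap on either side. PRAME (458 ± 58.4 cpm per kb) and HMGA1 (196 ± 16.2) no longer overlapped, and ALB stayed last at 1.58 ± 0.108 cpm per kb.

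The genes whose levels followed AFP most closely over the 6 libraries were sought by Euclidean distance of log2 cpm, centred on the sgCtrl mean. The search covered 8278 genes that passed the filter with a mean of at least 10 cpm, so ALB could not appear. In sgCtrl the AFP pattern rested on only 5, 2 and 8 counts. The nearest were PROCR (distance 0.89), CD24 (1.17), FN1 (1.25), ANXA6 (1.25) and CPZ (1.31). PROCR, the endothelial protein C receptor, had 2, 2 and 6 sgCtrl counts against 25, 144 and 100, and like AFP it was highest among the sgCtrl libraries in replicate 3. FN1, encoding fibronectin, was far more abundant, with 78, 68 and 66 sgCtrl counts against 564, 3360 and 2808. The surface protein CD24 had 5, 3 and 6 against 69, 316 and 275 counts, the annexin ANXA6 2, 2 and 2 against 21, 93 and 77, and the carboxypeptidase CPZ, also on chromosome 4, 6, 3 and 4 against 33, 133 and 122. Log2 fold changes were 2.67 (PROCR), 3.53 (CD24), 2.89 (FN1), 2.94 (ANXA6) and 2.46 (CPZ). They were picked for their likeness to AFP, so no test is given.

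**Figure D4:**
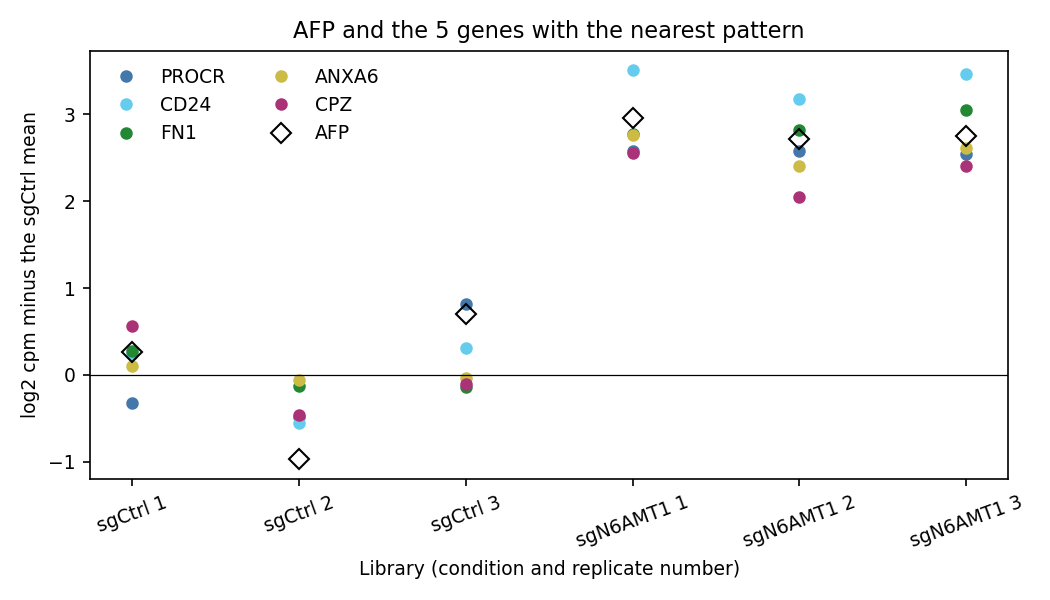
The vertical axis gives log2 cpm minus the sgCtrl mean in each of the 6 libraries (horizontal axis) for AFP (diamonds) and the 5 genes nearest to it (circles). All 6 genes lie above 2 in every sgN6AMT1 library and below 1 in every sgCtrl library, and AFP has the widest scatter in sgCtrl.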

How the data were processed

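The authors trimmed reads with cutadapt (minimum length 15, quality cutoff 2), aligned these to GRCh38 using HISAT2 defaults and overlapped them with the annotation of release 84, and they deposited a raw count per gene and library. The counting tool, the use of strand and the treatment of reads mapping to several places are not given in the sources used here. The methods describe stranded, rRNA-depleted total RNA, and the labels list polyA RNA.

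Of 19330 symbols 18866 matched an annotation (GENCODE release 44 or RefSeq), 882 of them as older symbols. Genes were filtered (filterByExpr, leaving 8324), scaled by TMM factors and fitted by the quasi-likelihood functions glmQLFit and glmQLFTest (edgeR 4.0.16, R 4.3.3) over the 6 libraries without covariates. P-values were adjusted by Benjamini-Hochberg over all genes tested, at a threshold of 0.05. Levels are TMM-normalized cpm. Exact permutation tests and counting intervals used scipy 1.17.1. The fit was tested on simulated data. Libraries of a condition differed by more than counting noise (chi-square per degree of freedom 2.04 to 11.9), so all were counted separately.

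The genes studied, the 10 gene lists and the tests were chosen with earlier results of these data known. Named are the genes studied, N6AMT1, genes within 2 Mb of AFP that passed the filter or averaged at least 5 counts per library, up to 5 called genes and the 2 most abundant of each list, the AFP repressors, and the 5 genes nearest to AFP with at least 10 cpm. Others are named to account for a list or because a list was at 0. Alternatives were DESeq2 1.42.0, other normalizations, filters and thresholds, a GC and length correction, a replicate block, thinning of the 3 deeper libraries to 825173 counts, and leaving out libraries.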

Additional observations from a re-analysis of the deposited data

How the results depend on the processing

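None of the 6 genes tested reversed its direction under 17 alternatives. AFP was chosen for its rise, so its kept direction under 16 alternatives is a description only. The fit to all libraries called 820 genes, and fits with 1 library left out called 220 to 951 (301 without sgCtrl replicate 1, 220 without sgCtrl replicate 2, 495 without sgN6AMT1 replicate 2 and 538 without sgN6AMT1 replicate 3), 122 without sgN6AMT1 replicates 2 and 3 (added after seeing the data), where the lone library was assumed to vary like the controls, and 214 at an adjusted p under 0.01. Of the 9 genes other than AFP, 3 were called, 0 to 3 with 1 library left out, 0 without sgN6AMT1 replicates 2 and 3, and 0 at 0.01. It was 2 with the deeper libraries thinned (HMGA1, adjusted p = 0.0620) and 4 without a filter, ALB being added. Near AFP 0 genes were called, and 1 (ALB) without a filter. AFP had under 10 counts in the sgCtrl libraries, so a filter of at least 10 counts in every library left it out. The fits of ALB without a filter and with libraries left out or thinned were added after seeing the data. Of the 19 called genes of the lists, 4 (APOE, HNRNPU, DLK1 and PAGE5) were called with each library left out in turn. Over 18 alternatives the calls ran from 0 to 2 for AFP regulators and cancer-testis genes, 1 to 2 for hepatocyte genes, 0 to 4 for the LIN28 and let-7 and the SALL and NuRD lists, 1 to 3 for IGF2BP partners and other oncofetal genes, 0 to 3 for PRAME partners and 0 to 6 for K562 markers, and stayed at 0 for other blood cell markers.

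With a replicate block 1195 genes were called, and 1353 when the block was joined with the GC and length correction. The 3 calls among the genes studied were kept. Libraries with the same number correlated at r = -0.00052 to 0.190 in their deviations from the condition means, and not every library correlated best with its own number, so they were taken to share only a number.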
